A study of Nematostella vectensis with 84 samples.

Results

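The comparison asked how transcript levels in the oral disc and tentacles of the starlet sea anemone, Nematostella vectensis, differed between time points T2 and T0 of recovery from calcium-free KSW, an abbreviation that is not explained in the labels. It used 11 of the 84 libraries of the series: the 6 calcium-free libraries of T0, lettered A to F, and 5 of the 6 libraries of T2, lettered A to E. T2 F was left out by the rule of the comparison, as a library that stands apart from its group. All 11 came from adults exposed to the same medium, with no other agent or allele named, and the labels describe hourly sampling in recovery. The labels do not say whether T0 came before or after the exposure, and no untreated animals entered the comparison. Nor do they say that the lettered libraries are separate animals: the p-values reflect variation from library to library, which may be technical. The design text of the series counts 3 replicates per time point, whereas the labels give 6 letters. It also speaks of conditions in the plural, which the labels do not tie to letters. If letters are repeat libraries of the same animals, an n of 6 stands for 3 sources and the p-values given here are too small; the labels do not settle this.

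Calcium holds cells together through cadherins, adhesion proteins that fold and bind only with calcium attached. In vertebrate hair cells it also keeps the fine links between sensory hairs intact. The tentacles of sea anemones carry hair bundles that sense vibration, together with stinging cells and a muscular epithelium. Which of these cells contributed to a count cannot be read here, because fewer cells of a type and less RNA per cell look alike in whole tissue. The gene models carry NVE numbers, and 0 of the 23510 numbers matched the names of the reference gene table. No gene is therefore given a function, no marker of the tissue could be checked, and only the 2 leading genes in each direction are named, with 1 more where the treatments were set against each other.

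The libraries were shallow. Total counts of the 11 libraries ran from 249450 to 464108, with a median of 328678, so that 1 read was worth 1.84 to 4.21 CPM on the TMM-scaled CPM scale used for the levels of named genes below. The T0 libraries held 324638 ± 69474 counts (SD, n = 6) and the T2 libraries 362861 ± 62600 (SD, n = 5), a difference within the spread (exact permutation test, two-sided, p = 0.361). Brought to an equal depth of 249450 reads, they showed 13574 ± 729 genes at T0 and 13689 ± 515 at T2 (exact permutation p = 0.775). The 10 most abundant genes of each library took 31.0 ± 5.09% of its reads at T0 and 28.6 ± 4.41% at T2 (exact permutation p = 0.418). Adjusted over these 3 measures, the p-values were 0.627, 0.775 and 0.627. The 10 top genes took 30.4 to 36.6% of reads in letters D to F and 22.4 to 30.6% in A to C, ranges that met at T2 E and T0 A. Leaving out T2 F gave T2 3 libraries of A to C and 2 of D to F, against 3 and 3 at T0.

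T2 F differed from the other libraries in more than one respect. It had the most reads, 591692, but its 10 top genes took 11.5% of them. Its log2 CPM values correlated with those of the 11 others at 0.519 to 0.691, whereas the 11 correlated with each other at 0.841 or more. Among the 11, time point set the libraries apart little. The correlation had a median of 0.892 within T0, 0.908 within T2 and 0.891 between the time points. The most alike of all pairs was T0 B with T2 B, at 0.953. T0 B was more like the T2 libraries, at a mean correlation of 0.920, than like its own group, at 0.890, whereas T0 D was like neither, at 0.862 and 0.879. T0 B and T2 B still differed by 1.72 times the chi-square per degree of freedom that counting error gives, so they were kept as separate libraries.

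**Figure D1:**
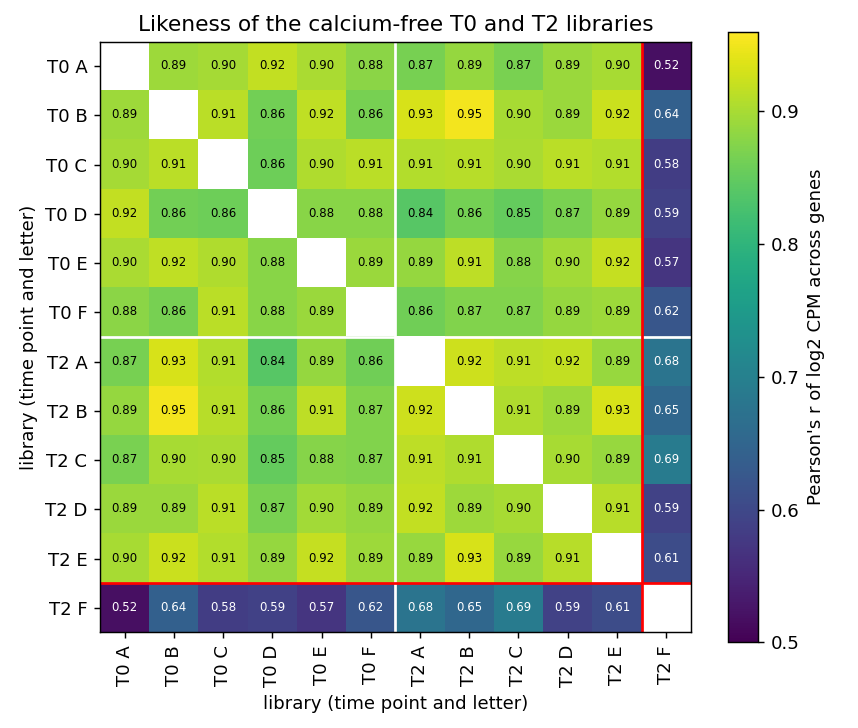
Pearson's r of log2 CPM across genes for each pair of the 12 calcium-free libraries of T0 and T2; rows and columns are libraries, the white lines part T0 from T2 and the red lines set off T2 F. T2 F is dark against every other library (0.519 to 0.691), and T0 B with T2 B is the brightest cell (0.953).

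Some genes were scored as present in some libraries and wholly missing from others, by pairs of letters taken from earlier results of these data. The rule counts only genes alike within a pair, and no other pairing was scored. That the genes counted follow these pairs is thus set by the rule. A gene was scored as on in a pair of letters (A and D, B and E, or C and F) at 10 or more reads in both libraries and as off at 0 reads in both. Over the 11 libraries 19 genes were on in at least 1 pair and off in another. T0 B and E and T2 B and E had the same state in 8 of 8 genes scored in both. T0 A and D and T2 A and D had the same state in 0 of 8. T2 C stood without its partner, and T2 F matched it in 11 of the 12 genes scored in both. The cytochalasin D libraries, from animals treated with a drug that blocks actin assembly, carried the same states: in all 6 combinations of time point and letter pair every gene scored in both treatments agreed, 8 to 11 genes each. B and E are thus the 1 letter pair in which T2 and T0 can be compared with the scored genes unchanged. This is known for 8 of the 19 genes only, as the rest were not scored at both time points. In the other letter pairs, time point and switched set cannot be told apart. Of the 19 genes, 10 were abundant enough to test and 2 had an unadjusted p under 0.05. Over all genes tested the share was 278 of 3520 (7.90%), and 10 genes are too few to set against it.

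No gene among those tested passed the threshold between T2 and T0 after correction. The genes tested were 15% of the 23510 gene models, and the rest had too few reads. Of 3520 genes tested, 0 (0% called) had a Benjamini-Hochberg adjusted p under 0.05 in edgeR's quasi-likelihood test. The smallest adjusted p was 0.185, shared by 8 genes. At an unadjusted p under 0.05 there were 278 genes, 7.90% of those tested, 150 of them lower at T2 and the rest higher. DESeq2 called 1 gene, which was lower. In 7 genes (0.199%) every T2 library lay above every T0 library, and in 11 (0.312%) every T2 library lay below. With 462 ways to split 11 libraries into 5 and 6, a gene without any difference separates in a given direction at a rate of 0.00216. Both shares are near that rate, so a lack of overlap does not by itself mark a gene.

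The differences were small for most genes tested. The median log2 fold change over all tested genes was 0.0047, its quartiles were -0.20 and 0.20, and 88.2% lay within 0.5 of 0. By value alone 10 genes were over 1 log2 unit higher at T2 and 26 were over 1 unit lower. For 2792 genes (79.3%) the 95% interval of the fold change lay inside a 2-fold change in either direction. The precision depended on abundance. With the genes split by abundance into 3 equal bins, the most abundant had a median of 205 CPM and an interval that reached a median of 0.40 log2 units to either side, a factor of 1.32. In the middle bin, at 74.6 CPM, it reached 0.54, and in the lowest, at 46.8 CPM, 0.64, a factor of 1.56. The lowest bin held 60 of the 278 genes.

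**Figure D2:**
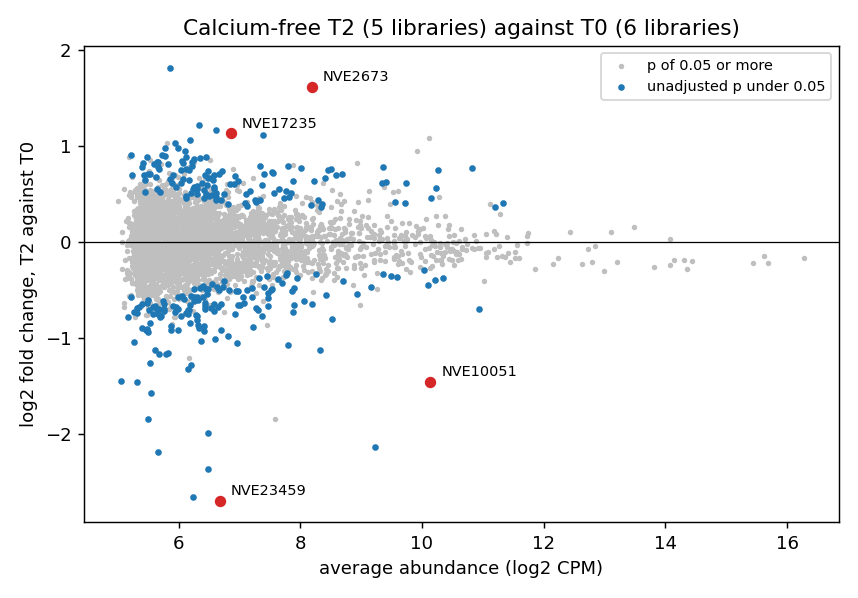
Log2 fold change of T2 (5 libraries) against T0 (6 libraries) for each of the 3520 genes tested, over the average abundance in log2 CPM. Grey points have an unadjusted p of 0.05 or more, blue points (278) a lower one, and red points are the 4 named genes; the highest log2 fold change is 1.81 and the lowest -2.69, and no gene passed after adjustment.

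The 4 named genes are the first 2 by p in each direction among genes above the median abundance with all 5 T2 libraries on one side of the T0 median. None of the 4 passed the adjusted threshold in the comparison itself, and their levels are given as values.

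NVE10051 was the most abundant transcript of the 4. In T0 libraries A to F it stood at 1470, 868, 521, 2117, 1510 and 1157 CPM. In T2 libraries A to E it stood at 381, 376, 337, 746 and 522 CPM. T2 A, B and C lay below every T0 library, T2 E lay at the level of the lowest, T0 C, and T2 D above it. The means were 1274 ± 557 CPM at T0 (SD, n = 6) and 472 ± 168.4 at T2 (SD, n = 5). The difference, T2 minus T0, was -1.46 ± 0.29 (log2, SE, 95% interval -2.07 to -0.84, edgeR adjusted p = 0.185). It was the gene that DESeq2 called (log2 fold change -1.45, adjusted p = 0.0204), and it also passed with a term for letters A to C against D to F (-1.38, edgeR adjusted p = 0.0401). It further passed without T0 B and without T0 C, the lowest T0 libraries of this gene, at edgeR adjusted p = 0.0405 and 0.00964. It did not pass with letter pairs summed (-1.49, edgeR adjusted p = 0.507) or with T2 F put back (-1.22, 0.421). Nor did it pass in a fit of all calcium-free libraries but T2 F (-1.44, edgeR adjusted p = 0.187). With any other single library left out it did not pass (edgeR adjusted p = 0.114 to 0.538). Of the 4 genes it had the most even difference over the letter pairs: -1.74 ± 0.35 in A and D, -1.35 ± 0.35 in B and E and -1.34 ± 0.46 for T2 C against T0 C and F (log2, SE).

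NVE23459 was lower at T2 by the widest margin of any gene tested. It stood at 113.1, 49.6, 22.4, 274, 107 and 240 CPM in T0 A to F, which are 42, 27, 9, 84, 29 and 57 reads. In T2 A to E it stood at 18.6, 25.1, 35.4, 9.25 and 9.27 CPM, or 10, 11, 14, 3 and 3 reads. T2 B and T2 C overlapped with T0 C, and the T0 libraries spread over more than 10-fold. Means were 134 ± 101 CPM at T0 (SD, n = 6) and 19.5 ± 11.1 at T2 (SD, n = 5), a difference of -2.69 ± 0.55 (log2, SE; edgeR adjusted p = 0.185). The difference was -3.73 ± 0.70 in A and D, -1.95 ± 0.76 in B and E and -1.79 ± 0.83 in C and F (log2, SE). Without T0 C it passed at an edgeR adjusted p of 0.00964, and without T0 B at 0.0405. These are the lowest T0 libraries of this gene, so leaving either out widens the difference. With any other single library left out it did not pass (edgeR adjusted p = 0.152 to 0.538).

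NVE2673 was higher at T2. It stood at 70.0, 255, 107, 127.2, 107 and 25.2 CPM in T0 A to F and at 407, 322, 643, 228 and 238 CPM in T2 A to E. T0 B overlapped with T2 D and T2 E, and the other 5 T0 libraries lay below all of T2. Means were 115 ± 77.4 CPM at T0 (SD, n = 6) and 368 ± 170.1 at T2 (SD, n = 5), a difference of 1.61 ± 0.36 (log2, SE, 95% interval 0.86 to 2.37, edgeR adjusted p = 0.185). Leaving out T0 B, the highest T0 library of this gene, raised it to 2.04 with an edgeR adjusted p of 0.0255. With any other single library left out it did not pass (edgeR adjusted p = 0.145 to 0.556). The difference was uneven over the letter pairs: 0.63 ± 0.38 in B and E, 1.65 ± 0.41 in A and D and 3.13 ± 0.47 in C and F (log2, SE).

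NVE17235 was the 1 gene of the 4 whose groups did not overlap. Its T0 libraries A to F stood at 29.6, 60.6, 59.8, 35.9, 77.7 and 84.1 CPM, and its T2 libraries A to E at 96.6, 111.8, 192, 133 and 98.9 CPM. Means were 57.9 ± 21.8 (SD, n = 6) and 126 ± 39.5 CPM (SD, n = 5), a difference of 1.13 ± 0.26 (log2, SE, 95% interval 0.58 to 1.68, edgeR adjusted p = 0.185). With T2 F put back it was 2.06. The difference was 0.70 ± 0.34 in B and E, 1.71 ± 0.38 in A and D and 1.42 ± 0.38 in C and F (log2, SE).

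In B and E the 8 switched genes scored at both time points kept their state. Held to this pair, 0 of 3520 genes passed (0% called by edgeR), and 120 (3.41%) had an unadjusted p under 0.05. That contrast rests on 2 libraries against 2. The 4 named genes had an edgeR adjusted p of 1.00 each in it. They were chosen on libraries that include these 4, so their sign here is no separate evidence.

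**Figure D3:**
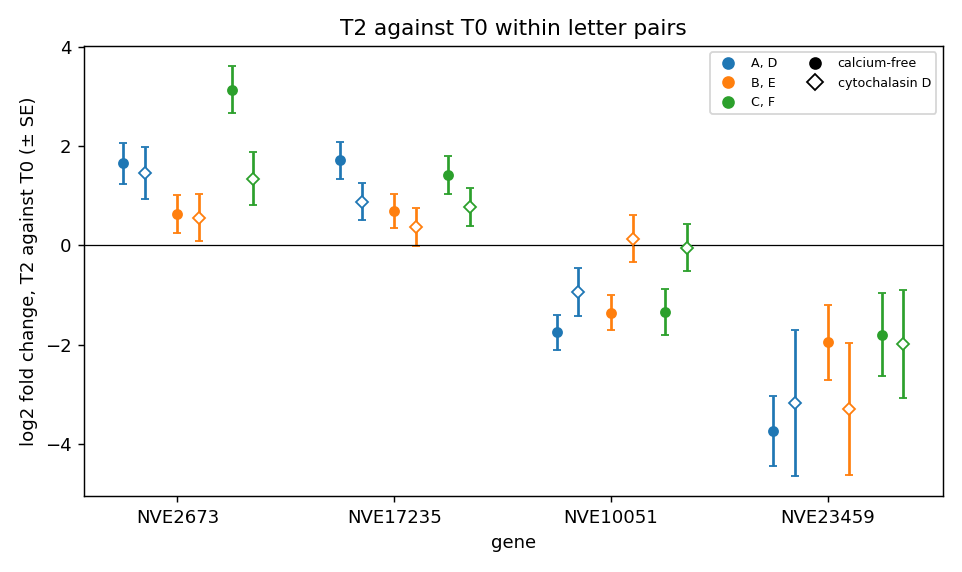
Log2 fold change of T2 against T0 within pairs of letters for the 4 named genes, with its SE as bars; filled circles are calcium-free libraries, where T2 F is left out, and open diamonds are cytochalasin D libraries. NVE2673 in the calcium-free libraries runs from 0.63 in B and E to 3.13 in C and F, while NVE10051 lies between -1.74 and -1.34.

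The later course of the 4 genes was read from 1 fit of the 29 calcium-free libraries without T2 F, in which all contrasts share the T0 libraries. The 4 genes were chosen by their T2 and T0 values. Their p-values at T1, T3 and T4 reuse those T0 values and are no separate evidence. In that fit 0.0447% of 4473 genes were called at T1, 0 at T2 (391 at an unadjusted p under 0.05), 1.21% at T3 and 7.29% at T4. NVE2673 averaged 291 ± 103.4 CPM at T1, 272 ± 53.7 at T3 and 454 ± 282 at T4 (SD over 6 libraries). Its log2 fold change went past the threshold at T4 (1.92 ± 0.35, SE, edgeR adjusted p = 0.00081) and stood at 1.28 and 1.21 at T1 and T3, which did not pass (0.299 and 0.0813). NVE17235 averaged 97.7 ± 34.8, 162.97 ± 64.9 and 161.3 ± 41.1 CPM at T1, T3 and T4 (SD, n = 6 each). It rose at T3 by 1.52 ± 0.27 (log2, SE, edgeR adjusted p = 0.00549) and at T4 by 1.49 ± 0.27 (0.00081).

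NVE23459 averaged 33.0 ± 34.1, 21.3 ± 22.1 and 33.6 ± 38.0 CPM at T1, T3 and T4 (SD, n = 6 each), and it fell at T3 (log2 -2.69 ± 0.64, SE, edgeR adjusted p = 0.0274) and T4 (-1.92 ± 0.60, 0.0457). NVE10051 had its lowest mean of the 5 time points at T2, the time point at which it was chosen for being low, so this low is no separate evidence. It averaged 920 ± 472, 661 ± 374 and 799 ± 383 CPM at T1, T3 and T4 (SD, n = 6 each) and passed at none of them (log2 fold change -0.50, -0.92 and -0.68, edgeR adjusted p = 0.827, 0.232 and 0.267).

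**Figure D4:**
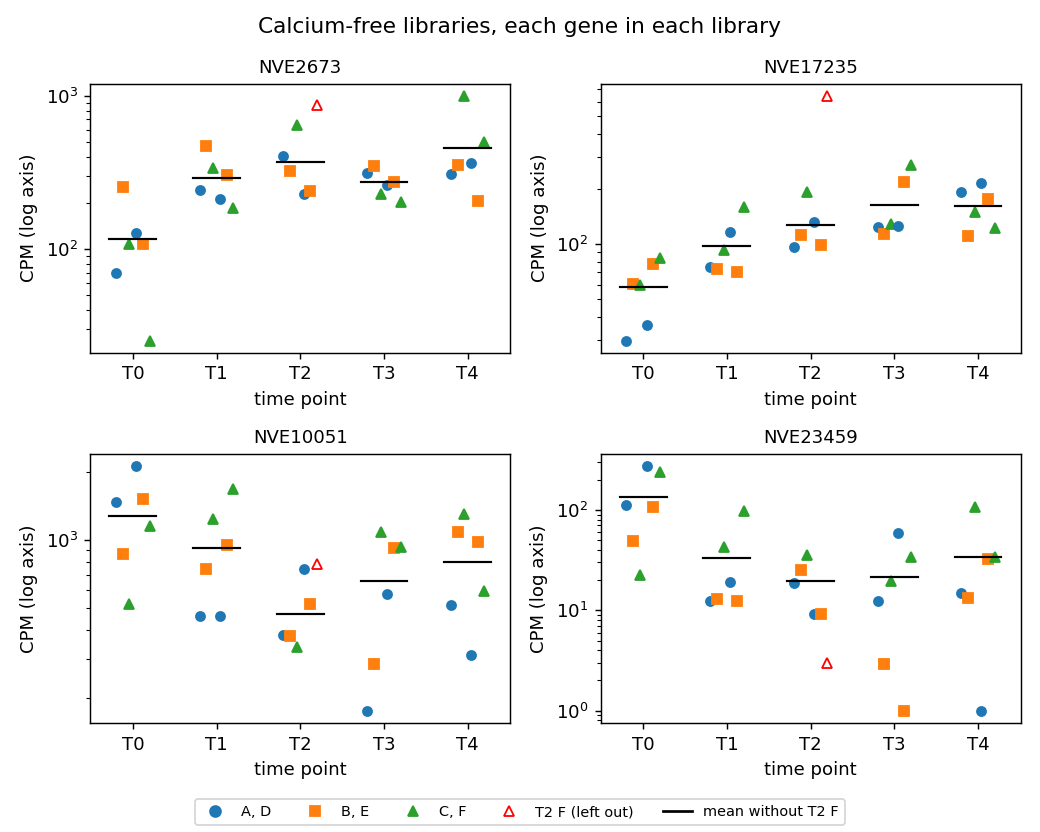
CPM on a log axis in each calcium-free library for the 4 named genes at T0 to T4. Markers give the letter pair, which need not be the same material at different time points, the open red triangle is T2 F, bars are means without it, and a level of 0 is drawn at 1 CPM. NVE17235 shows no overlap of T0 (29.6 to 84.1 CPM) with T2 (96.6 to 192 CPM).

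Cytochalasin D offered libraries that the comparison does not use, 6 at T0 and 6 at T2, also sampled during recovery. There 25 of 3418 genes (0.731%) differed between T2 and T0, of which 7 rose and 18 fell by edgeR. All 7 that rose were tested in the calcium-free libraries too, and all 7 had a positive log2 fold change there, from 0.22 to 0.98 with a median of 0.61. Of the 18 that fell 16 were tested, and 14 had a negative log2 fold change, with a median of -0.49 and a range of -1.05 to 0.29. Over all genes tested, 1795 of 3520 had a positive log2 fold change. None of these 25 genes was among the 19 switched genes, of which only 10 were abundant enough to test in the calcium-free libraries. With 0.731% of genes called, an overlap of 0 says nothing about the switched genes.

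Read the other way, genes with an unadjusted p under 0.05 in the calcium-free libraries mostly had the same sign after cytochalasin D. Of those that were higher, 120 were tested there and 85.8% of them were higher, with a median log2 fold change of 0.35. Of the 150 that were lower, 141 were tested and 123 (87.2%) were lower, with a median of -0.29. Over the 3123 genes tested in both, 50.0% were higher after cytochalasin D. Since both treatments carry the same switched genes at each time point and letter pair, a likeness due to time point and one that goes with the switched genes cannot be told apart. In cytochalasin D libraries B and E the genes scored had the states of calcium-free B and E at each time point. There 70.8% of the 120 were higher and 70.9% of the 141 lower, with medians of 0.24 and -0.19. In A and D these shares were 87.5% and 85.8%, with medians of 0.62 and -0.48, and in C and F 76.7% and 74.5%, with medians of 0.35 and -0.24.

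The 4 named genes did not pass in cytochalasin D at T2. Their log2 fold changes there were 0.99 ± 0.36 for NVE2673, 0.72 ± 0.26 for NVE17235, -0.32 ± 0.29 for NVE10051 and -2.30 ± 0.89 for NVE23459 (SE, edgeR adjusted p = 0.188, 0.188, 0.656 and 0.221). Tested directly, none passed for a difference between the treatments in its change from T0 to T2 (edgeR adjusted p = 0.999 each). The adjustment is over all genes tested, and with these SEs a difference is not excluded. The difference, calcium-free minus cytochalasin D, was -1.15 ± 0.45 for NVE10051, 0.60 ± 0.55 for NVE2673, 0.39 ± 0.39 for NVE17235 and -0.40 ± 1.24 for NVE23459 (log2, SE). In B and E alone NVE10051 stood at 0.14 ± 0.47 after cytochalasin D and NVE23459 at -3.29 ± 1.33 (log2, SE). In streptomycin, where T2 is a length of exposure and not a recovery time and 1.12% of the genes tested were called, NVE17235 rose by 0.96 ± 0.18 (log2, SE, edgeR adjusted p = 0.00943). There NVE2673 stood at 0.63 and NVE10051 at -0.0079 (log2, edgeR adjusted p = 0.468 and 0.999), and NVE23459 was too low to be tested.

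Of 4552 genes, 1 (0.0220%) changed differently between T0 and T2 in the 2 treatments: NVE2343, named because it was the only call. In the calcium-free libraries it stood at 158.8, 407, 421, 346, 485 and 479 CPM in T0 A to F and at 580, 463, 686, 435 and 448 CPM in T2 A to E. The groups overlapped, with means of 383 ± 121.1 (SD, n = 6) and 522 ± 108 CPM (SD, n = 5), and the log2 fold change was 0.44 ± 0.22 (SE, edgeR adjusted p = 0.656). In cytochalasin D it rose from 180 ± 20.04 to 875 ± 296 CPM (SD, n = 6 each), by 2.24 ± 0.20 (log2, SE, edgeR adjusted p = 1.44e-05). The difference of the changes was -1.82 ± 0.32 (log2, SE, edgeR adjusted p = 0.0209). It includes the unequal T0 levels of the treatments, and it did not pass with T2 F put back (adjusted p = 1.00), a library at 1420.5 CPM of this gene, or with the letter as a block (adjusted p = 0.104). It also did not pass without any of T0 C, E and F or T2 A, B, D and E, at edgeR adjusted p up to 0.0761. With T0 A, T0 B, T0 D or T2 C left out 1 gene still passed, at edgeR adjusted p = 0.000437 to 0.0452.

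Putting T2 F back gave 0 calls as well, but shifted the balance. With 12 libraries 418 of 3597 genes (11.6%) had an unadjusted p under 0.05, 298 higher and 120 lower, whereas without it 150 of 278 were lower. The smallest adjusted p was 0.405 by edgeR, and the typical spread between libraries, as edgeR's common coefficient of biological variation, was 39.4% against 24.0%. The lists shared 196 genes, 70.5% of the list without T2 F and 46.9% of the list with it.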

How the data were processed

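The deposited table holds counts of reads per gene model without scaling; per the labels' protocols the library preparation followed a published method, and the submitters' processing notes name Bowtie2. Build, annotation, counting, strand and duplicate handling are not stated there, so reads of near-identical, overlapping or antisense genes may be split or joined. All 84 columns matched sample titles and 0 were left unused. Tests used edgeR 4.0.16 in R 4.3.3: filterByExpr (minimum count 10, total 15), TMM scaling, estimateDisp, glmQLFit and glmQLFTest on the 11 libraries, 1 mean per group, with Benjamini-Hochberg adjustment over all genes tested and a threshold of 0.05. SEs were derived from the F statistic. CPM values printed for libraries are TMM-scaled over all 84 libraries, and fold changes come from the fits. Correlations used log2 CPM with a prior count of 2. Alternatives used DESeq2 1.42.0 and limma 3.58.1, and the edgeR steps were tested on simulated counts. Exact permutation tests enumerated 462 splits, with a smallest p of 0.00216. The members, lists, letter pairs and tests were chosen with earlier results of these data known. Named genes are the first 2 by p in each direction above median abundance with all 5 T2 libraries on one side of the T0 median; the rule for genes with names was not used, as no table pairs them.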

Additional observations from a re-analysis of the deposited data

Results flagged for a closer look

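The library T2 F lay outside the range of the 6 T0 libraries in 2641 of the 3520 genes tested (75%), so the values below are no feature of the named genes. T2 F, which the comparison leaves out, lay outside the range of the 6 T0 libraries in 3 of the 4 named genes, which is the share over all genes. It stood at 869 CPM of NVE2673, above the highest T0 library at 255 CPM, and at 645 CPM of NVE17235, against a highest T0 value of 84.1 CPM and a highest value of 192 CPM among the 5 other T2 libraries. It stood at 3.01 CPM of NVE23459, which is 2 reads, below the lowest T0 library at 22.4 CPM. Its level of NVE10051, 785 CPM, lay within the T0 range. Read totals, genes at equal depth, the share of the 10 top genes and the levels of the 4 named genes were searched, with T2 F left out, for a single library far from its group in 14 groups of values, and 0 were found; about 1 in 20 such groups would give one by chance.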

How the results depend on the processing

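The count of 0 genes between T2 and T0 also held with RLE scaling, letter pairs summed, T2 F put back with and without quality weights, and all 29 calcium-free libraries fitted. It was 1 with DESeq2, 1 with letters D to F given a term of their own, 3 in a fit of all libraries but T2 F, which included none of the named genes, and 63 without a low-count filter (26 higher, 37 lower). In that unfiltered fit edgeR estimated infinite prior degrees of freedom against 9.04 with the filter, so it allowed genes no spread of their own, and its calls were not used. Leaving out 1 library gave 0 to 5 genes, with 4 without T0 B and 5 without T0 C. Of settings chosen after the data were seen, T0 B left out with T2 F put back, T0 B and T2 B left out, and genes above median abundance alone each gave 0. With the letter as a replicate block 1 gene passed, NVE10051 (edgeR adjusted p = 0.00461). The letters did not pair the libraries: same-letter deviations correlated at -0.096 to 0.306, over 0.1 in 2 of 5, and T2 A, C, D and E were closer to another letter.

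The call between the treatments went to 0 with the replicate block, to 0 with T2 F put back, to 19 without the filter and to 0 to 1 with 1 library left out. The count was 1 with DESeq2 (adjusted p = 0.000686). It was also 1 with RLE scaling and in a fit of all libraries but T2 F (edgeR adjusted p = 0.0218 and 3.87e-05). Within B and E 2 genes passed without the filter. With T2 F put back the genes that rose in cytochalasin D had a median log2 fold change of 0.83. At 5 reads in place of 10, 69 genes counted as switched. The difference in genes at equal depth, T2 minus T0, ran from -62.0 to 354.7 with 1 library left out, that in total counts from 12911 to 61993, and that in the share of the 10 top genes from -4.09 to -0.92 percentage points (-5.22 with T2 F put back). With T2 F put back NVE2673 stood at 2.05 and NVE17235 at 2.06 (log2). The named genes kept their direction in every setting run. They were chosen by that direction and the settings reuse most of the same libraries, so this is no separate evidence. Shallow depth widens the intervals most for the least abundant genes.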

Other observations

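The spread within each time point is given without T2 F, whose removal for standing apart lowers the spread of T2, so the groups are not compared. Among genes above the median abundance the SD of log2 CPM had a median of 0.33 over the 6 T0 libraries and 0.30 over the 5 T2 libraries. The first principal component of the 1000 most variable genes held 26.3% of the variance. T0 A, D and F scored -12.9, -23.0 and -11.1 and T0 E -2.23, whereas T0 B and C scored 8.49 and 3.34, within the range of the T2 libraries (0.42 to 14.5). Libraries of 1 letter pair correlated at 0.9116 to 0.9178 within T0 and those of different pairs at 0.8588 to 0.9118. These ranges just overlapped, as T0 C was about as close to T0 B (0.9118) as to its partner T0 F (0.9116). Within T2 the ranges overlapped too, at 0.918 to 0.932 and 0.888 to 0.925, and T2 A was closer to T2 B than to its partner T2 D. In a weighted fit of all 12 libraries T2 F received a weight of 0.0726, and the others 0.961 to 1.67.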
